A study of Mus musculus with 12 samples.

Results

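Angiopoietin-Tie and apelin signalling was described through 7 genes, Angpt1, Angpt2, Tek, Tie1, Ptprb, Apln and Aplnr, out of 21899 in the deposited gene table. The genes were taken by name. Tek, Ptprb and Aplnr were chosen by their measured response in these same libraries, which under the combined treatment differed from the sum of the single treatments. For these 3 genes that contrast, and every contrast that shares it, is given as a description without a test. Their remaining contrasts were tested. Those tests are free of the choice only where groups spread equally, and these groups did not. All 7 genes passed the filter on low counts, along with 13638 genes in all. RNA was sequenced from tumours that 4T1-LUC cells, a luciferase-marked mouse mammary carcinoma line, formed after injection under the skin of BALB/c mice that were 4 to 6 weeks of age. Of 12 libraries, 3 came from each of 4 groups. The combination group received curcumin, a polyphenol of turmeric, at 100 mg/kg in corn oil by gavage and swam for 30 min afterwards. The swimming group received corn oil and swam for 30 min. The curcumin group received the same curcumin gavage and did not swim. The control group received corn oil only. All 4 groups carried the tumour and were gavaged with 200 µL every afternoon, so no group was free of tumour or of handling. The labels name the tissue as a tumour and the cell type as a breast cancer cell, and they do not say whether the 3 libraries of a group were separate tumours or animals. The p-values therefore measure the spread between these libraries, which may be technical.

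Angiopoietins are secreted ligands of the endothelial receptor tyrosine kinase TEK, also called TIE2. Angiopoietin 1, made largely by mural cells and other stromal cells, activates TEK and holds vessels quiescent. Angiopoietin 2, released by endothelial cells, acts as a weak or context-dependent agonist that can oppose it. TIE1 is a related receptor that pairs with TEK and modulates its signal, and PTPRB, the vascular endothelial protein tyrosine phosphatase, removes phosphate from TEK. Apelin is a peptide that sprouting endothelial cells and some tumour cells release, and its receptor APLNR is a G-protein-coupled receptor of growing vessels. Both pathways are studied in tumours because they set how vessels sprout and mature.

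The libraries held 15069348 to 17278826 counted reads. The groups were not equally tight. The per-gene chi-square between the 3 combination libraries was 3.67, 7.22 and 7.68, against 12.9, 13.4 and 27.1 between swimming libraries, 6.88, 9.75 and 21.5 between curcumin libraries and 22.4, 50.2 and 70.8 between control libraries, where sampling noise alone gives about 1. The combination libraries thus lay close together but were not copies, and control library 2 stood apart from the other 2 controls. Control libraries 1 and 3 were not a tight pair either. Control library 1 was nearer to curcumin library 3 (14.5), and control library 3 to curcumin library 1 (13.2), than to each other (22.4). Control library 2 was nearer to swimming libraries 1 and 3 (36.1 and 38.3) than to either control. Results that rest on the combination group were run again with its 3 libraries summed to 1 sample, and those that move without control library 2 are given without it. With the libraries summed, edgeR called 0 of 14155 tested genes for combination against control, against curcumin or against swimming, for swimming against curcumin and for the interaction, so that every call given for these comparisons, of the 7 genes and of listed genes alike, was lost in that fit. An unadjusted p under 0.05 was then held by 8.15% of genes for combination against control, 5.07% against curcumin, 9.23% against swimming, 16.8% for swimming against curcumin and 4.17% for the interaction. Mitochondrially encoded genes took 5.33% ± 0.672 of counts in combination, 4.60% ± 0.255 in swimming, 3.76% ± 0.373 in curcumin and 3.68% ± 0.680 in control libraries (SD, n = 3 each). Endothelial genes were present in every library: none of 18 endothelial markers was at 0 anywhere. The carcinoma cells and the host are both mouse, so a read cannot be assigned to either.

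In tumours of mice that swam without curcumin, the endothelial receptor and phosphatase transcripts Tek, Ptprb and Aplnr lay below every library of the other 3 groups. In tumours of mice that received both treatments, Aplnr, Angpt1 and Apln lay above every library of the other 3 groups. Aplnr averaged 29.3 ± 2.50 CPM (counts scaled to library size) in combination, 3.22 ± 1.93 in swimming, 13.2 ± 0.736 in curcumin and 9.03 ± 2.74 in control tumours (SD, n = 3 each). Angpt2 overlapped between neighbouring groups at each step of its order. Across all tested genes, 2.05% had their 3 swimming libraries below the other 9 libraries and 6.47% had their 3 combination libraries above the other 9. The choice of Tek, Ptprb and Aplnr used part of this pattern, and nothing further is read from those counts.

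**Figure D1:**
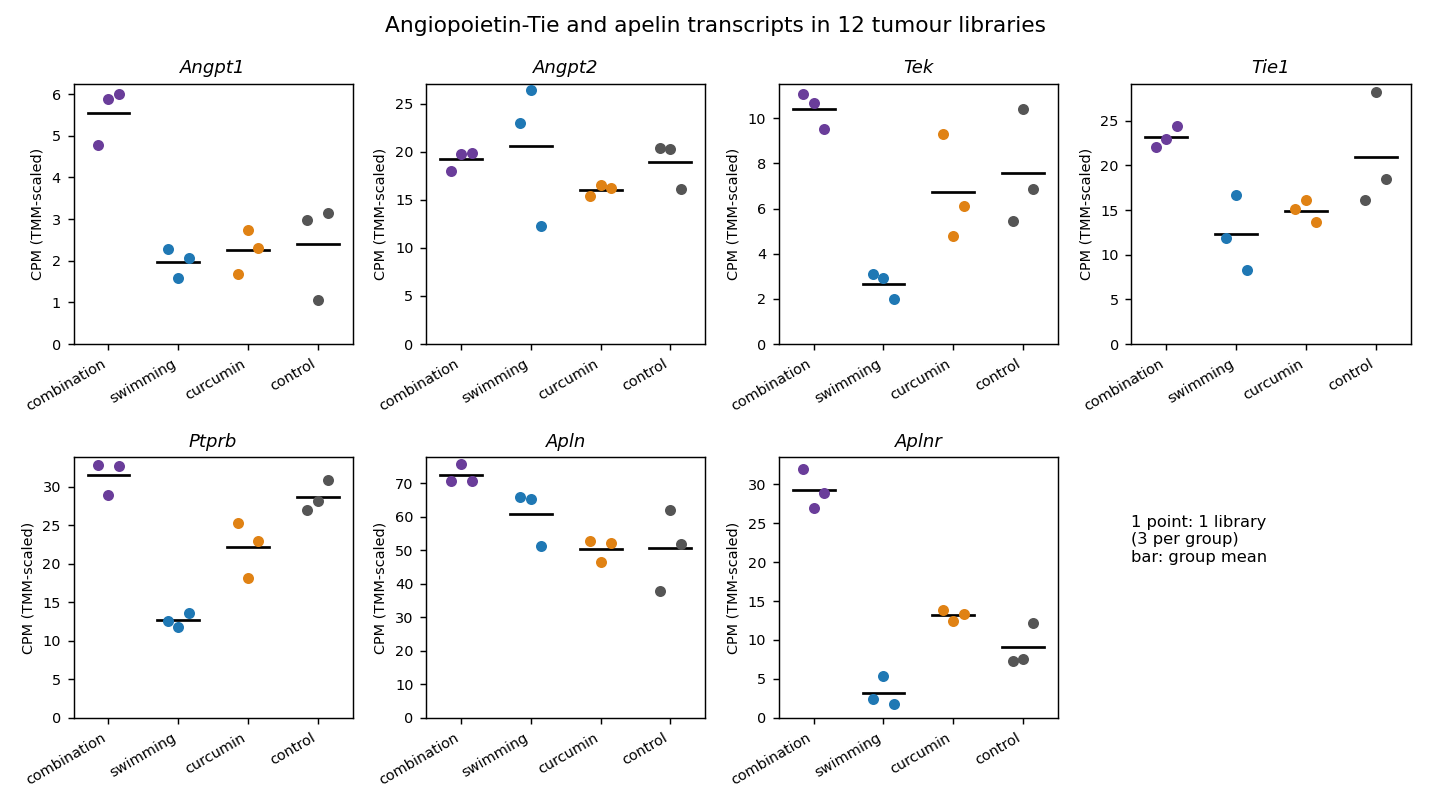
Expression of the 7 genes in each of the 12 libraries, in CPM after TMM scaling (linear axes that start at 0). Points are libraries, bars are the means of 3, and groups run combination, swimming, curcumin, control. Aplnr is at 27.0 to 32.0 CPM in combination libraries and at 1.82 to 5.42 in swimming libraries, while neighbouring groups overlap for Angpt2.

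Per kilobase of transcript, the deposited FPKM values placed Apln highest and Angpt1 lowest in every group. In control tumours, mean FPKM was 16.2 for Apln, 5.16 for Angpt2, 4.27 for Tie1, 2.47 for Aplnr, 2.17 for Ptprb, 1.61 for Tek and 0.468 for Angpt1. In combination tumours, mean FPKM was 22.8 for Apln, 7.86 for Aplnr, 5.16 for Angpt2, 4.67 for Tie1, 2.34 for Ptprb, 2.19 for Tek and 1.06 for Angpt1. Aplnr was thus next to Apln in combination tumours, and below Angpt2 and Tie1 in control tumours. In swimming tumours Aplnr averaged 0.848 FPKM, Ptprb 0.927 and Tek 0.551. The lowest count behind any of these values was 18 reads, for Angpt1 in control library 2, so Angpt1 is the least precisely measured of the 7 genes.

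Promoters are shown because many endothelial genes are known for ETS-factor motifs near their start. A window of 250 bases before and 50 bases after the start was found for 3 of the 7 genes, Tek, Tie1 and Apln, on build GRCm38.p6. Letters are in capitals where the ETS core AGGAA, or its variant CGGAA, lies on either strand, so that a match on the opposite strand reads TTCCT or TTCCG. The Tek window is chr4:94739039-94739338 on the plus strand, the Tie1 window is chr4:118489800-118490099 on the minus strand and the Apln window is chrX:48034804-48035103 on the minus strand. Each is printed from 5′ to 3′ on the strand of its gene.
Tek: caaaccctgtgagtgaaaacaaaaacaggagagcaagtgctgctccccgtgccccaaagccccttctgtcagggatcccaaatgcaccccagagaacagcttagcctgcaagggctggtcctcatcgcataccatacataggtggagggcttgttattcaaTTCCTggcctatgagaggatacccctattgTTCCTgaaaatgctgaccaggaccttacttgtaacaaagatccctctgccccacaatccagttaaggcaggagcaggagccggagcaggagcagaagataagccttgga
Tie1: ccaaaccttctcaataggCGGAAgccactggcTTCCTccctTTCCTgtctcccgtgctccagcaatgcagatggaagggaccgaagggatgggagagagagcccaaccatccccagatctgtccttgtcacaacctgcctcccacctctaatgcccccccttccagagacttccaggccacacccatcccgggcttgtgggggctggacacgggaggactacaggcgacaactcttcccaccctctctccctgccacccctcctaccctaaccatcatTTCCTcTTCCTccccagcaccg
Apln: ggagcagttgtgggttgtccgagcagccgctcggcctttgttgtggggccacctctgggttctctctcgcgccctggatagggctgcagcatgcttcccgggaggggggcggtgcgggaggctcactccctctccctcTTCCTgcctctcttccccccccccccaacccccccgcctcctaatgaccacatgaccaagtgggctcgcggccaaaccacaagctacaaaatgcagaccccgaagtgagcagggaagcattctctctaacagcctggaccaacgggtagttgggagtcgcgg
The AGGAA core occurred 4 times in the Tie1 window, 2 times in that of Tek and 1 time in that of Apln, and 66.7% of 32851 RefSeq promoter windows of the same length held it at least once. The CGGAA variant occurred 1 time, in Tie1, and was in 29.9% of windows. A GATA motif, AGATAA, occurred 1 time in the Tek window and in 11.2% of windows. A forkhead core, AAACA, occurred 2 times in the Tek window and in 50.5% of windows. The hypoxia response cores ACGTG and GCGTG were not in any of the 3 windows, against 19.6% and 32.4% of all windows. A match describes the letters of the window and not a bound site.

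Angpt1, the activating ligand (ENSMUSG00000022309, placed by the deposited table at chr15:42288119-42540373 on the minus strand), stood out in the combination tumours. It had 4.78, 5.87 and 6.01 CPM in combination libraries, 2.28, 1.59 and 2.07 CPM in swimming libraries, 1.69, 2.74 and 2.31 CPM in curcumin libraries and 2.97, 1.07 and 3.15 CPM in control libraries. Every combination library lay above the other 9, and the other 3 groups overlapped one another. Against swimming the difference was 1.49 ± 0.36 on the log2 scale (± SE, 2.80-fold) and passed the test (edgeR quasi-likelihood, adjusted p = 0.0324). Against control it was 1.21 ± 0.35 with adjusted p = 0.0619, and against curcumin 1.30 ± 0.35 with adjusted p = 0.0962, so neither passed, although no library overlapped. The difference from control was called by DESeq2 and limma voom (adjusted p = 0.0164 and 0.0410) and without control library 1 (adjusted p = 0.0381), while leaving out control library 2, its lowest value, gave 0.86 with adjusted p = 0.103. The call against swimming was lost without curcumin library 3, without any 1 swimming or combination library (adjusted p of 0.0545 to 0.109) and with the combination libraries summed (0.480).

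Angpt2, the context-dependent ligand (ENSMUSG00000031465, chr8:18740279-18791578 on the minus strand), was not called in any comparison. Its level was 18.0, 19.7 and 19.9 CPM in combination libraries, 23.0, 26.4 and 12.2 CPM in swimming libraries, 15.4, 16.5 and 16.2 CPM in curcumin libraries and 20.4, 20.2 and 16.1 CPM in control libraries. Swimming held both the highest and the lowest of the 12 values. Curcumin libraries lay below combination libraries without overlap (0.26 ± 0.22 for combination against curcumin, edgeR adjusted p = 0.557). The difference of combination from control was 0.02 with a 95% interval of -0.45 to 0.49. That of swimming from control was 0.12 with an interval of -0.35 to 0.59. Changes within those intervals, in either direction, are compatible with these libraries.

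Tek, the angiopoietin receptor (ENSMUSG00000006386, chr4:94627526-94763213 on the plus strand), was low in the swimming tumours. Its level was 11.1, 10.7 and 9.55 CPM in combination libraries, 3.08, 2.91 and 2.01 CPM in swimming libraries, 9.28, 4.77 and 6.10 CPM in curcumin libraries and 5.45, 10.4 and 6.89 CPM in control libraries. Each swimming library lay below the other 9, and combination overlapped control through control library 2. The swimming difference was -1.51 ± 0.30 without curcumin (swimming against control) and 0.63 ± 0.28 with it (combination against curcumin), given as a description. Some comparisons have weights orthogonal to that contrast, which frees them from the choice of Tek only where groups spread equally. The groups here did not. In these comparisons Tek was lower in swimming than in curcumin tumours (-1.34 ± 0.30, edgeR adjusted p = 0.0473). It was not separable between combination and control (0.46 ± 0.28, 95% interval -0.15 to 1.06, adjusted p = 0.306). The call against curcumin was marginal: it was lost in 13 of 21 alternatives. Among them were limma voom (adjusted p = 0.0816), each combination library left out and each curcumin and swimming library left out.

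Tie1, the partner receptor (ENSMUSG00000033191, chr4:118328388-118347258 on the minus strand), had 22.1, 23.0 and 24.4 CPM in combination libraries, 11.9, 16.7 and 8.34 CPM in swimming libraries, 15.1, 16.1 and 13.7 CPM in curcumin libraries and 16.2, 28.2 and 18.5 CPM in control libraries. Combination lay above both single treatments without overlap, and control reached across the combination range because of control library 2. Combination exceeded swimming by 0.91 ± 0.24 (1.88-fold, edgeR adjusted p = 0.0410). The remaining differences did not pass, among them swimming against control (-0.77 ± 0.24, adjusted p = 0.198) and curcumin against control (-0.49 ± 0.24, adjusted p = 0.476), whose ranges did not overlap. The call against swimming was lost without any 1 curcumin or combination library, without swimming library 1 or 3 (adjusted p of 0.0539 to 0.130) and with the combination libraries summed (0.501). Without swimming library 3, its lowest value, the difference was 0.69.

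Ptprb, the phosphatase that acts on TEK (ENSMUSG00000020154, chr10:116111428-116225440 on the plus strand), was low in swimming tumours and intermediate in curcumin tumours. It had 32.8, 29.0 and 32.7 CPM in combination libraries, 12.5, 11.8 and 13.6 CPM in swimming libraries, 25.3, 18.2 and 22.9 CPM in curcumin libraries and 27.0, 28.1 and 30.8 CPM in control libraries. Swimming libraries lay below all others, curcumin libraries below all controls, and combination overlapped control. As a description, the swimming difference was -1.18 ± 0.13 without curcumin and 0.51 ± 0.13 with it, and the curcumin difference without swimming was -0.37 ± 0.13. Ptprb was lower in swimming than in curcumin tumours (-0.81 ± 0.13, 0.572-fold, edgeR adjusted p = 0.0174), and combination did not separate from control (0.14 ± 0.13, 95% interval -0.14 to 0.41, adjusted p = 0.505). The call against curcumin was lost without curcumin library 3 (adjusted p = 0.0907), without swimming library 1 (0.108) and with the combination libraries summed (0.0819), with log2 values of -0.93 to -0.70 over all alternatives.

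Apln, the apelin ligand (ENSMUSG00000037010, chrX:47114023-47123730 on the minus strand), had 70.5, 75.8 and 70.7 CPM in combination libraries, 65.9, 65.4 and 51.2 CPM in swimming libraries, 52.9, 46.5 and 52.1 CPM in curcumin libraries and 37.9, 62.0 and 51.9 CPM in control libraries. Combination libraries were above all others. The other 3 groups overlapped one another. Combination differed from control by 0.52 ± 0.15 (1.43-fold, edgeR adjusted p = 0.0665) and from curcumin by 0.52 ± 0.15 (adjusted p = 0.112), and neither passed. Without control library 2 the difference from control was 0.69 with adjusted p = 0.0287, and DESeq2 called it with all libraries in (adjusted p = 0.0201).

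Aplnr, the apelin receptor (ENSMUSG00000044338, chr2:84966569-84970267 on the plus strand), separated all 4 groups. It had 32.0, 27.0 and 29.0 CPM in combination libraries, 2.41, 5.42 and 1.82 CPM in swimming libraries, 13.9, 12.4 and 13.4 CPM in curcumin libraries and 7.33, 7.58 and 12.2 CPM in control libraries. The order was combination, curcumin, control, swimming, with no overlap between neighbours, which was the case for 0.147% of tested genes. Aplnr was chosen on values that enter this order, and nothing is read from that share. Aplnr was higher in combination than in control tumours (1.70 ± 0.30, 3.24-fold, edgeR adjusted p = 0.0183) and lower in swimming than in curcumin tumours (-2.04 ± 0.32, 0.243-fold, adjusted p = 0.0165). As a description, combination exceeded swimming by 3.19 ± 0.33 (9.12-fold) and curcumin by 1.15 ± 0.29, swimming differed from control by -1.49 ± 0.32, and curcumin from control by 0.55 ± 0.30. Without control library 2 the difference of combination from control was 1.59 with adjusted p = 0.0258. Leaving out any 1 combination library took its adjusted p to 0.0660, 0.0799 or 0.0785, and summing them to 0.597, with log2 values of 1.57 to 1.97 over all alternatives. The difference of swimming from curcumin lost its call without curcumin library 2 (adjusted p = 0.0597) or 3 (0.0866), without swimming library 1 (0.109) and with the combination libraries summed (0.0819), with log2 values of -2.65 to -1.75.

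Set side by side, the tested comparisons gave few calls. For combination against control, 1 of 7 genes was called, Aplnr, which was higher, where 5.17% of all tested genes were called and 2.6% were called higher. For swimming against curcumin 3 of 7 were called, all lower (Tek, Ptprb and Aplnr), where 1.9% of all genes were called and 0.99% were called lower. They are the 3 genes chosen on the interaction, and with groups of unequal spread that count is not free of the choice. For combination against swimming 2 of the 4 genes tested were called, both higher (Angpt1 and Tie1), where 6.88% of all genes were called and 3.67% were called higher. None of 4 was called for combination against curcumin, where 0.895% of all genes were called, and 3 of the 4 (Angpt1, Tie1 and Apln) had an unadjusted p under 0.05, against 18.2% of all genes. None of 4 was called for swimming against control, where 0.293% of all genes were called, and 1 of the 4, Tie1, had an unadjusted p under 0.05, against 13.1% of all genes. None of 4 was called for curcumin against control, where 0 of all genes were called by edgeR, and none of the 4 had an unadjusted p under 0.05, against 11.1% of all genes. DESeq2 called 2 of the 4 for combination against curcumin, limma voom called none of them, and neither tool called any of the 4 for a single treatment against control. These comparisons share libraries with one another, so their counts are not independent.

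Counted by libraries that did not overlap, 3 of 7 genes were higher in combination than in control tumours (Angpt1, Apln and Aplnr), where 16.3% of all tested genes were. All 7 were higher in combination than in curcumin tumours (18.6% of all genes), and 6 of 7, without Angpt2, were higher in combination than in swimming tumours (20.4% of all genes). In swimming tumours 3 of 7, Tek, Ptprb and Aplnr, were lower than in control tumours (7.24% of all genes) and the same 3 were lower than in curcumin tumours (15.3% of all genes). Between curcumin and control tumours, Aplnr was higher (7.41% of all genes were) and Tie1 and Ptprb were lower (7.22% of all genes were). Only Aplnr had its swimming libraries below and its combination libraries above all others, which 0.191% of all genes did. Except for combination against control and swimming against curcumin, these counts include genes chosen on a contrast that overlaps them, and nothing is read from them. The excepted counts are free of the choice only where groups spread equally, which they did not.

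Averaged over swimming, curcumin-treated tumours were higher than tumours without curcumin in Aplnr (1.87 ± 0.22, edgeR adjusted p = 0.00529), Tek (0.90 ± 0.20, adjusted p = 0.0306) and Ptprb (0.47 ± 0.09, adjusted p = 0.0217). That made 3 of 7 genes called, where 6.62% of all tested genes were called and 3.26% were called higher. Again these are the 3 genes chosen on the interaction, and with unequal spread the count is not free of that choice. Aplnr kept this call when any 1 library was left out and lost it with the combination libraries summed (adjusted p = 0.164). Ptprb lost it without curcumin library 3, swimming library 1 or any 1 combination library (adjusted p of 0.0561 to 0.0645). Tek lost it without curcumin library 1 or 3, swimming library 1 or 3 or any 1 combination library (0.0596 to 0.0766). Averaged over curcumin, no gene of the 7 was called for swimming, where 2.02% of all tested genes were called, and 2 of the 7, Ptprb (-0.34 ± 0.09, adjusted p = 0.0706) and Apln (0.39 ± 0.11, adjusted p = 0.0755), had an unadjusted p under 0.05, against 19.8% of all genes. DESeq2 called both, as did edgeR without control library 2, and limma voom called neither. An average over groups that move in opposite directions describes neither: Aplnr differed by -0.17 ± 0.22 on average for swimming while its separate swimming differences were -1.49 and 1.15.

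**Figure D2:**
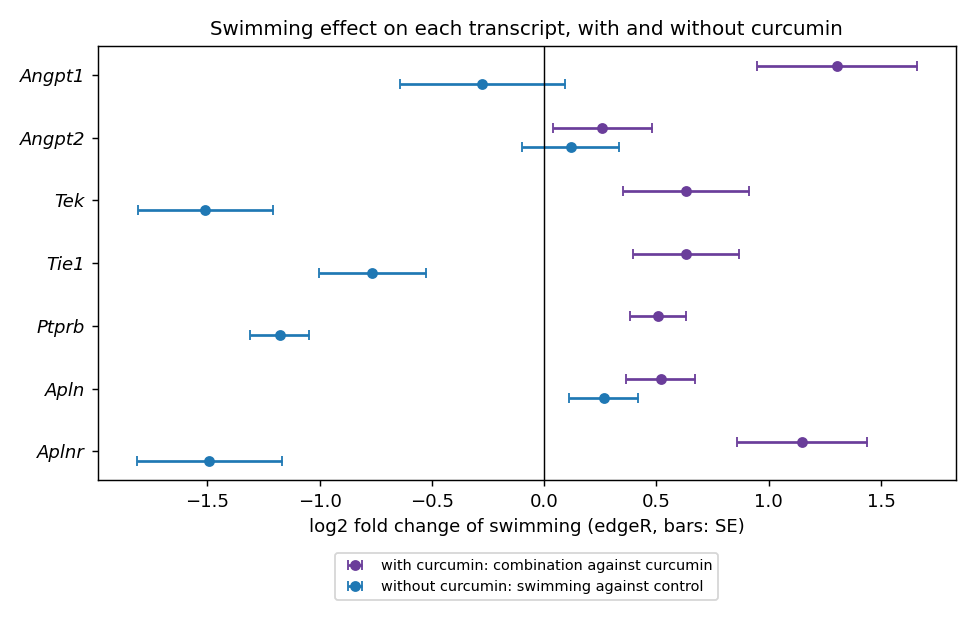
Log2 fold change attributed to swimming for each gene, with curcumin (combination against curcumin) and without it (swimming against control); points are edgeR estimates and bars their SE. Angpt1, Tek, Tie1, Ptprb and Aplnr lie left of 0 without curcumin and right of 0 with it, while Apln and Angpt2 lie right of 0 in both, Angpt2 at 0.26 with curcumin and 0.12 without it.

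The design asks whether the combined treatment equals the sum of its parts. On the log2 scale the single differences from control added up to -1.68 for Tek, -1.55 for Ptprb, -0.94 for Aplnr, -1.25 for Tie1 and -0.37 for Angpt1, while the combined treatment differed from control by 0.46, 0.14, 1.70, 0.15 and 1.21 in the same order. The gap between both, the interaction, was 2.64 ± 0.44 for Aplnr, 2.14 ± 0.41 for Tek and 1.69 ± 0.18 for Ptprb, the values on which these 3 genes were chosen. Among the 4 genes that were not, the interaction was 1.58 ± 0.51 for Angpt1 (edgeR adjusted p = 0.271), 1.40 ± 0.34 for Tie1 (0.151), 0.25 ± 0.22 for Apln (0.717) and 0.14 ± 0.31 for Angpt2 (0.912). None of the 4 was called, where 0.139% of all tested genes were called, and 2 of the 4, Angpt1 and Tie1, had an unadjusted p under 0.05, against 11.1% of all genes. DESeq2 called 1 of the 4, Tie1, and limma voom called none. Without control library 2 Angpt1 reached 1.93 with adjusted p = 0.0183, and without swimming library 2 Tie1 reached 1.68 with adjusted p = 0.0359. Among 13638 genes ordered from the most positive interaction, Aplnr ranked 28, Tek 61, Ptprb 143, Angpt1 170, Tie1 233, Apln 2813 and Angpt2 4264, where the 5th to 95th percentiles ran from -0.78 to 0.81.

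**Figure D3:**
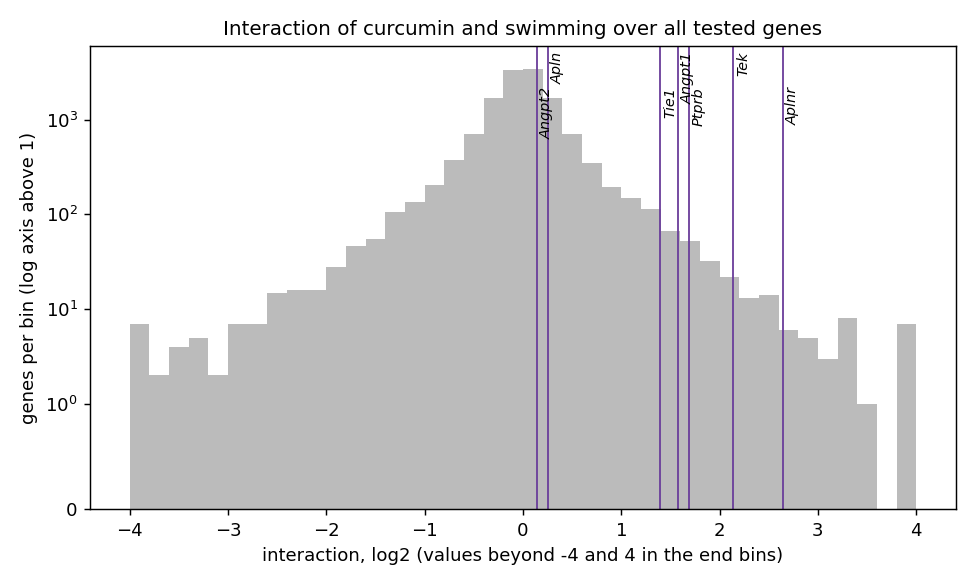
Distribution of the interaction (log2, combination minus curcumin minus swimming plus control) over 13638 tested genes, as genes per bin on an axis that is logarithmic above 1, with the 7 genes as vertical lines. Angpt2 and Apln lie near the centre at 0.14 and 0.25, and the other 5 lie between 1.40 and 2.64.

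The 5 genes with a large interaction lay in the direction taken by a list of 18 endothelial markers, while a list of 8 tip-cell genes divided. Of 18 endothelial markers, 11 (61.1%, beside 3.67% of all tested genes) were called higher in combination than in swimming tumours, among them Emcn (1.62), Kdr, the main receptor of vascular endothelial growth factor (1.37), Plvap (1.27) and the junction protein Pecam1 (1.03), and their median was 1.20 against -0.0049 over all tested genes. In swimming against curcumin tumours 3 of the 18 were called lower (Plvap, Kdr and Pecam1), or 16.7% beside 0.99% of all genes, and none was without any 1 curcumin or combination library or swimming library 1 or 3, or by limma voom. Against control, 0 of the 18 were positive and 18 negative in swimming tumours, with a median of -0.70. None was called by edgeR, where 0.293% of all genes were called. An unadjusted p under 0.05 was held by 12 of the 18, against 13.1% of all genes. DESeq2 called 7 and limma voom none, and without a share over all genes nothing is read from the 7. Nearest to a call were Pecam1 (-0.75, adjusted p = 0.0556) and Plvap (-0.76, adjusted p = 0.0666). In the interaction all 18 were positive with a median of 1.14, and 1 was called, Plvap (1.32, adjusted p = 0.0395), where 0.139% of all genes were called. Of 8 tip-cell genes, which mark sprouting endothelium, 4 were positive and 4 negative, with a median of -0.065. Nid2 (1.08) was the most positive and Adm (-1.27) the most negative. Adm is also on the list of hypoxia-response genes given below. In bulk RNA the reads of these genes cannot be assigned to tip cells. Arterial, venous and lymphatic genes had medians of 0.50, 0.44 and 0.55, with 6 of 7, 3 of 4 and 3 of 4 tested positive. The lymphatic median and count include Ccl21a (0.31, SE 1020), which was at 0 CPM in swimming and combination tumours, so its value carries no information. Of the other lymphatic genes, Flt4 (1.73) and Lyve1 (0.80) were positive and Pdpn (-0.32) was negative. The negative venous gene was Selp (-1.37). None of these subtype genes was called in the interaction. Among the 18 the count for combination against swimming was 3 to 5 without any 1 combination library, 5 without swimming library 1, 7 without swimming library 3 and 0 with the combination libraries summed. In the interaction the count was 7 without control library 2, 5 without swimming library 2, and 9 by DESeq2, and it was 0 without control library 1, swimming library 1 or any 1 curcumin or combination library. Calls over all genes moved between these fits as well, so nothing is read from the counts of these alternatives. The summed level of the 18 genes was 830 to 914 CPM in combination, 477 to 597 in swimming, 675 to 689 in curcumin and 636 to 843 in control libraries. In bulk tumour RNA, fewer endothelial cells and less RNA of a gene per cell cannot be told apart, and the part of endothelial content in the results above was not tested.

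Relative to the mean log2 CPM of those 18 genes in the same library, the 7 genes divided. Swimming differed from control by -0.92 for Aplnr, -0.80 for Tek and -0.53 for Ptprb, and by -0.13 for Tie1. Every swimming library was below every control in this measure for Tek. Aplnr overlapped in 1 swimming library (-1.55, against -1.68 in control library 2), and so did Ptprb: it was -0.16, -0.45 and 0.59 in swimming libraries and 0.62, 0.19 and 0.76 in control libraries. In the other direction, Angpt2 (0.70) and Apln (0.93) were higher in swimming than in control tumours by this measure, with no overlap for either, and Angpt1 differed by 0.50. Between combination and curcumin tumours the differences were 0.57 for Aplnr and 0.71 for Angpt1, and they were 0.10 for Tek, 0.06 for Tie1, -0.06 for Ptprb, -0.05 for Apln and -0.32 for Angpt2. The interaction by this measure was 1.49 for Aplnr, 0.90 for Tek, 0.47 for Ptprb, 0.20 for Angpt1 and 0.19 for Tie1, and it was negative for Angpt2 (-1.01) and Apln (-0.98). Without the markers subtracted, it was 0.14 for Angpt2 and 0.25 for Apln, while the 18 markers had a median of 1.14. These values are descriptions without a test, since the markers and several of the genes share the same libraries and cell type. Aplnr, Tek and Ptprb were also chosen on the interaction in these libraries, and subtracting the markers does not remove that choice. Nothing is read from the place of these genes among the 7.

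**Figure D4:**
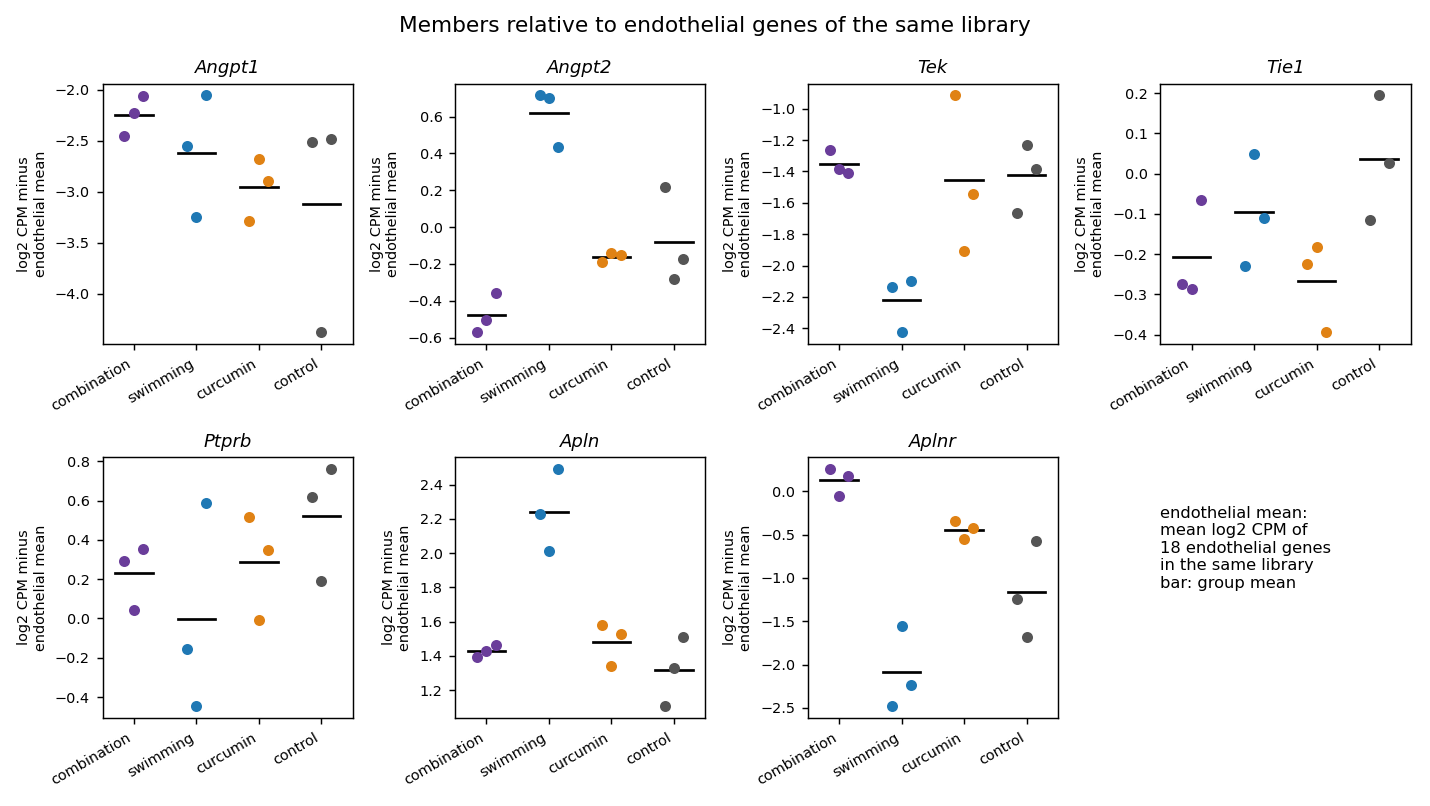
Log2 CPM of each gene minus the mean log2 CPM of 18 endothelial genes in the same library; points are libraries and bars are means of 3. Apln and Angpt2 are highest in swimming libraries by this measure (means of 2.24 and 0.62), and Aplnr has means of 0.13 in combination and -2.09 in swimming libraries.

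Other cell types and states moved as well. Mural-cell genes, which mark pericytes and vascular smooth muscle, summed to 597 to 626 CPM in combination, 303 to 520 in swimming, 499 to 519 in curcumin and 412 to 467 in control libraries, and 3 of 9 tested (Abcc9, Rgs5 and Pdgfrb) were called higher in combination than in swimming tumours, or 33.3% beside 3.67% of all genes. In swimming against curcumin tumours 2 of the 9, Rgs5 and Abcc9, were called lower, or 22.2% beside 0.99%, and neither was without any 1 combination library. Hypoxia-response genes summed to 2283 to 2364 CPM in combination, 3639 to 4338 in swimming, 2562 to 3112 in curcumin and 1853 to 3564 in control libraries. Of 12 such genes 7 were called lower in combination than in swimming tumours, or 58.3% beside 3.21% of all genes, among them Ero1a (-1.03), Pgk1 (-0.64), Slc2a1 (-0.88) and Ndrg1 (-1.30). The count was 0 to 2 without curcumin library 3, any 1 swimming library or any 1 combination library, and 0 with the combination libraries summed. Fibroblast genes summed to 5131 to 5543 CPM in combination, 1761 to 3251 in swimming, 4258 to 5228 in curcumin and 1160 to 4466 in control libraries. Of 5 tested adipocyte genes 3, Cidec, Cfd and Pck1, were called higher in combination than in control tumours, or 60% beside 2.6% of all genes. None was called without any 1 combination library. They were near the floor, at 0.02, 0.04 and 0 CPM in control and 1.76, 3.17 and 1.32 in combination tumours. Neither Fabp4 (0.73) nor Lipe (-0.21) was called. The 8 listed genes summed to only 34.3 to 37.6 CPM in combination and 18.4 to 26.9 CPM in control libraries. Lymphatic endothelial genes summed to 49.6 to 55.8 CPM in combination, 20.1 to 29.5 in swimming, 39.7 to 67.1 in curcumin and 30.3 to 34.9 in control libraries. Most of that sum was Pdpn and Flt4, at 29.4 and 19.4 CPM in combination and 16.4 and 10.8 in control tumours. Lyve1 and Reln were higher in combination as well. Prox1, Mmrn1 and Ccl21a were lower, at 0.308, 0.103 and 0 CPM in combination and 0.495, 0.470 and 1.23 in control tumours. Tumour epithelial genes, which the label of the samples calls for, summed to 3023 to 3170 CPM in combination, 2862 to 3299 in swimming, 2577 to 2909 in curcumin and 3055 to 3191 in control libraries, with at most 1 of the 7 genes at 0 in a library. Skeletal muscle genes, which mark host muscle, summed to 113 to 117 CPM in combination, 69.1 to 207 in swimming, 361 to 452 in curcumin and 42.1 to 508 in control libraries, with up to 3 of 9 at 0 in a library. All 9 were lower in estimate in swimming than in curcumin tumours, and 2 of them were called, Myh4 (-7.50, adjusted p = 0.0364) and Pvalb (-5.96, adjusted p = 0.0396), or 22.2% beside 0.99% of all genes. Neither was called without any 1 curcumin, swimming or combination library. Tek, Ptprb and Aplnr were called lower in that same comparison. The part of each of these in the levels of the 7 genes was not tested.

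Ratios of deposited FPKM set ligands against each other and against receptors within a library. Angpt2 exceeded Angpt1 by 5.30, 4.74 and 4.68 times in combination libraries, 14.3, 23.5 and 8.34 times in swimming libraries, 12.9, 8.50 and 9.87 times in curcumin libraries and 9.70, 26.8 and 7.21 times in control libraries. The combination ratios were the lowest of the 12, while Angpt2 itself was at 18.0 to 19.9 CPM in combination libraries and 12.2 to 26.4 CPM in the other 9. Apln exceeded Aplnr by 2.59, 3.30 and 2.87 times in combination libraries, 32.1, 14.2 and 33.1 times in swimming libraries, 4.48, 4.40 and 4.58 times in curcumin libraries and 6.08, 9.61 and 5.00 times in control libraries. This ligand to receptor ratio separated all 4 groups, as Aplnr alone did, while Apln overlapped among swimming, curcumin and control libraries. Aplnr was chosen on values that enter the ratio, and nothing is read from the separation. Between the 2 Tie receptors, Tek reached 0.472 ± 0.0584 of Tie1 in combination, 0.234 ± 0.0465 in swimming, 0.473 ± 0.167 in curcumin and 0.375 ± 0.0205 in control tumours (SD, n = 3 each). The ratio of Ptprb to Tek was 1.07 ± 0.127 in combination, 1.76 ± 0.554 in swimming, 1.21 ± 0.217 in curcumin and 1.43 ± 0.420 in control tumours. Swimming libraries (1.44 to 2.40) lay above combination (0.960 to 1.21) and curcumin libraries (0.962 to 1.35) without overlap. Control libraries (0.954 to 1.75) overlapped each of these groups. Ptprb and Tek were chosen on values that enter the ratio, and nothing is read from the separation.

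**Figure D5:**
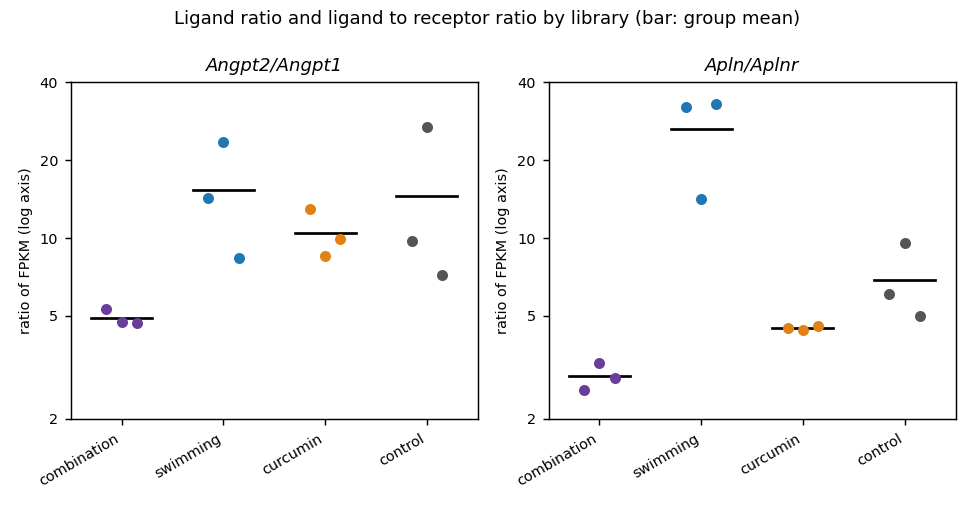
Ratio of FPKM of Angpt2 to Angpt1 (left) and of Apln to Aplnr (right) in each library, on logarithmic axes; points are libraries and bars are means of 3. Apln to Aplnr is 14.2 to 33.1 in swimming libraries and 2.59 to 3.30 in combination libraries.

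Of 15 listed genes around TEK, among them the kinase subunits Pik3ca and Pik3r1, Akt1, the transcription factor Foxo1 and the endothelial nitric oxide synthase Nos3, 0 were called higher and 1 lower for combination against control, with a median of -0.01 against -0.02 over all tested genes. A share of 6.67% lies near the 5.17% of all genes that were called (2.57% lower), and nothing is read from it. That gene was Dok2, a docking protein that binds activated TEK and is also common in blood cells (-0.59 ± 0.15, edgeR adjusted p = 0.0490), a call that limma voom did not make and that was lost without any 1 swimming or combination library, curcumin library 1 or 3 or control library 3. Dok2 averaged 13.2 CPM in combination, 22.7 in swimming, 28.2 in curcumin and 19.8 in control tumours, and it was called lower in combination than in swimming (-0.79, adjusted p = 0.0169) and than in curcumin tumours (-1.10, adjusted p = 0.0133). Leaving out any 1 combination library ended both calls, swimming library 1 ended the first and curcumin library 2 or 3 the second. In the interaction Dok2 was the 1 gene of 15 called (-1.30 ± 0.22, edgeR adjusted p = 0.0395), where 0.139% of all genes were called. DESeq2 and limma voom each called 1 of the 15 as well, and edgeR called none without control library 1, swimming library 1 or 3 or any 1 curcumin or combination library, or with the replicate block. Macrophage genes summed to 1004 to 1012 CPM in combination, 753 to 1274 in swimming, 1187 to 1842 in curcumin and 978 to 1986 in control libraries, and neutrophil genes to 22.6 to 23.1 CPM in combination, 85.5 to 88.8 in swimming, 30.5 to 100 in curcumin and 35.0 to 165 in control libraries. Their part in the values of Dok2 was not tested. Tnip2, an inhibitor of NF-κB signalling that binds TEK, was called lower in combination than in swimming tumours (-0.42, adjusted p = 0.0347), again not without swimming library 1 or any 1 combination library. With Dok2 that made 2 of 15 called in that comparison, or 13.3% beside 6.88% of all genes. Tnip2 was also called lower for curcumin averaged over swimming (-0.28, adjusted p = 0.0438), a call lost without any 1 swimming or combination library, curcumin library 1 or 3 or control library 2 or 3, and with the combination libraries summed. Nos3 differed by 0.71 ± 0.28 between combination and swimming tumours (adjusted p = 0.120) and did not pass, nor did Svep1 (1.14 ± 0.46, adjusted p = 0.131), an extracellular ligand of TIE1.

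Of 12 listed apelin-pathway genes, 10 were tested and 0 were called in any of the 9 comparisons by edgeR. Over these comparisons 0% to 6.88% of all tested genes were called, and nothing is read from the absence of calls. An unadjusted p under 0.05 was held by 0 to 3 of the 10. The 3 fell in swimming averaged over curcumin, where 19.8% of all genes had such a p. DESeq2 called 1 for combination against control and 1 for swimming averaged over curcumin, and limma voom called none. Without a share over all genes beside them, nothing is read from the DESeq2 calls. For combination against control their median was 0.01 against -0.02 over all tested genes. Furin, a protease that processes proapelin, differed by 0.41 ± 0.13 (adjusted p = 0.0863), and Klf2, a transcription factor of quiescent endothelium, by -0.67 ± 0.24 (adjusted p = 0.106). The G-protein subunits Gnai2 and Gnai3 differed by 0.01 and 0.00. Apela, which encodes the other APLNR ligand, had no count in any library, which allows at most 0.175 to 0.201 CPM by library at 3 counts, for counting error only.

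Over the 12 libraries, each gene was set beside the 5 genes whose log2 CPM followed it most closely, as a description in which libraries and groups are shared. Tek was followed by Sox18, an endothelial transcription factor (Pearson r = 0.949), Fgd5 (0.947), She (0.945), Cd34 (0.940) and Disp2 (0.934). Tie1 was followed by Gpat4 (0.921), Cdh5, which encodes VE-cadherin (0.917), Ushbp1 (0.913), Arhgef15 (0.912) and Clec14a (0.910). Aplnr was followed by the potassium-channel subunit gene Abcc9 (0.986), Shank3 (0.964), Dpysl3 (0.964), Kcnj15 (0.953) and Kdr (0.947). Of these, Abcc9 is on the mural-cell list and Kdr on the endothelial list. Ptprb was followed by Slc25a22 (0.928), N4bp1 (0.925), Calcrl (0.918), Olfml2a (0.916) and B3gat3 (0.916). The ligands had other neighbours: Gnptab (0.944), Slc1a3, Hmg20b, Col11a1 and Gucy1b2 for Angpt1, Tmem125 (0.861), Krt19, Glrx3, Plcb3 and Fermt2 for Angpt2, and Got2 (0.936), Cfl1, Specc1, Esrp1 and Ap1ar for Apln. Among the 7 genes themselves, r was 0.912 between Tek and Ptprb, 0.865 between Tek and Aplnr, 0.831 between Tek and Tie1 and 0.811 between Ptprb and Aplnr, against -0.01 between Angpt1 and Angpt2 and 0.07 between Ptprb and Apln.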

How the data were processed

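The deposited table holds a raw read count and an FPKM value per gene for 12 libraries; the authors counted reads with HTSeq 0.9.1 per the labels' protocols. Build and aligner are stated in more than 1 way: mm9 with HISAT2 2.0.5 per the labels' protocols, and GRCm39 with cutadapt, TopHat2 and HISAT2 per the submitters' processing notes. Gene coordinates are therefore printed as the table holds them, and the strand setting of counting is not given in the sources used here. FPKM values, scaled by the authors to gene length and depth, were used for levels between genes and for ratios. No column of per-sample values was left unused (0). The protocol also names a group injected with saline instead of tumour cells, which is not analysed here.

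Counts were tested with edgeR 4.0.16 in R 4.3.3 (quasi-likelihood F-test, TMM scaling, filterByExpr with a minimum count of 10 and a minimum total of 15), in 1 fit of group means over all 12 libraries with 8 residual degrees of freedom. Adjustment of p-values was by Benjamini-Hochberg across the 13638 genes tested, with 0.05 as the limit for a call. Fold changes are log2 values ± SE with 95% intervals. Library means are TMM-scaled CPM, and log2 CPM used a prior count of 2. Groups were taken from the sample titles. The 9 contrasts were the 6 pairs of groups, both treatments averaged over the other, and the interaction. Combination against control, swimming against curcumin and both averages have weights orthogonal to the interaction, though libraries and the estimate of spread are shared. Orthogonal weights give independence only where groups spread equally, which these did not. The choice of Tek, Ptprb and Aplnr may therefore bear on their tests in these comparisons, in either direction. The procedure was tested on simulated counts.

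The genes, the 17 lists of pathway and marker genes and the tests were chosen with earlier results of these data known. Genes named beside the 7 are list members that were called, or else those of smallest p, at most 4 a list and comparison, and the 5 genes of highest correlation with each of the 7. Pathway genes named beyond that rule (Pik3ca, Pik3r1, Akt1, Foxo1, Nos3, Svep1, Gnai2, Gnai3 and Apela) were named for their roles after their values were seen. Alternatives were RLE scaling, DESeq2 1.42.0, limma 3.58.1 (voom), other filters on low counts, only the groups compared, a replicate block and each library left out. A robust spread and the combination libraries summed were added after seeing the data. Promoter windows came from RefSeq (GRCm38.p6).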

Additional observations from a re-analysis of the deposited data

Results flagged for a closer look

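For 3 genes the swimming difference had opposite signs with and without curcumin in every library: the 3 swimming libraries lay below the 3 controls, and the 3 combination libraries lay above the 3 curcumin libraries. The difference between both swimming effects, on the log2 scale, was 2.64 for Aplnr, 2.14 for Tek and 1.69 for Ptprb. The difference was not tested, because these genes were chosen on it. Of all tested genes 0.807% showed that pattern and 0.521% its mirror image, swimming above control and combination below curcumin. Aplnr moved further without swimming library 2, to 3.24, and Tek moved to 1.84 without control library 2.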

How the results depend on the processing

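Over 9 comparisons and all alternatives, a direction reversed in 23 cases, all of them small values that were not called. Without 1 library, Angpt1 in curcumin against control ranged from -0.44 to 0.16, Tek from -0.48 to 0.13 and Apln from -0.17 to 0.17. Under limma voom the same comparison gave 0.025 for Angpt1 and 0.023 for Apln, and Apln was 0.0033 at a mean count of at least 50. Angpt2 ranged from -0.10 to 0.39 in swimming against control, from -0.082 to 0.080 in combination against control, from -0.36 to 0.13 in combination against swimming and from -0.13 to 0.36 in the interaction. Tie1 ranged from -0.010 to 0.42 in combination against control and from -0.21 to 0.070 for swimming averaged.

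The count of called genes moved as follows. DESeq2 called 3 for combination against control, 2 for combination against curcumin, 2 for swimming averaged and 1 for the interaction, and limma voom called 2 for combination against control. With only the groups compared, 3 were called for combination against curcumin. At a mean count of at least 50, 1 was called for combination against swimming, where Angpt1 fell below the filter. Summing the combination libraries to 1 sample left 0 calls for combination against control, combination against swimming, swimming against curcumin and curcumin averaged, in a fit with fewer samples in which the lone sample is assumed to vary like the other groups. Leaving out 1 library gave 0 to 2 calls for combination against control, curcumin and swimming and for swimming averaged, 0 to 3 for swimming against curcumin, 1 to 3 for curcumin averaged and 0 to 1 for the interaction. The causes were not tested.

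Same-numbered libraries mostly did not deviate together: 2 of 18 pairs had a correlation over 0.1, and 5 of 12 libraries correlated best with their own number. With 3 libraries a group this cannot exclude a pairing by number. The replicate block left 1 call for combination against swimming, 2 for swimming against curcumin and 2 for curcumin averaged, and Apln in curcumin against control was 0.011. Of all tested genes, the calls for combination against control were 705, with 4 to 2267 when 1 library was left out and 0 to 1656 otherwise, and for the interaction 19, with 0 to 448 and 0 to 217.

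The design held 3 libraries a group, the lowest count behind a value was 18 (Angpt1), and calls against the combination group rest on 3 libraries that lay close together.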
